A study of Mus musculus with 5 samples.

Results

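The 10 genes described here encode plasma membrane carriers of amino acids: *Slc7a5*, *Slc3a2*, *Slc1a5*, *Slc1a4*, *Slc7a1*, *Slc7a8*, *Slc38a1*, *Slc38a2*, *Slc6a14* and *Slc7a4*. They were chosen by name, were all found among 24319 genes of a bulk RNA-seq table, and were followed through 5 libraries of flow-sorted luminal cells of the mouse mammary gland, the epithelial cells that line the ducts and alveoli and make milk. By their genotype labels, 3 libraries (replicates 1, 2 and 3) were wild type and 2 (replicates 4 and 5) were *Brca1* knockout, all on a mixed strain background. Values are FPKM, fragments assigned to a gene and scaled to transcript length and library size, which allow levels of different genes to be compared.

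The study's methods describe the knockout as a floxed *Brca1* removed by Cre from the MMTV promoter, which acts in the mammary epithelium, in mice of mixed C57BL/6 and 129/Sv origin. Luminal cells were gated as live CD24-high, CD29-low cells from adult females that were virgin or at mid-pregnancy, without the stage, age or number of mice behind each bulk library. The paper speaks of BRCA1-deficient luminal cells, whereas the labels give wild type for most of these libraries, and the alleles carried by the wild type mice are not given. *Brca1* was at 1.30, 1.32 and 0.234 FPKM in replicates 1, 2 and 3 and at 1.2 and 1.34 FPKM in replicates 4 and 5, so its level did not tell the labels apart, and a value for the whole gene does not resolve a floxed exon. The libraries are therefore called by their labels throughout, and values are listed in the order of the replicates, 1 to 3 for wild type and 4 to 5 for knockout. Nothing in the labels says that the libraries came from separate mice, so p-values measure the spread between these samples, which may be technical.

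Amino acids cross the membrane through carriers of several families, some exchanging one amino acid for another and some driven by sodium. SLC7A5 (LAT1) and SLC7A8 (LAT2) exchange large neutral amino acids such as leucine, and both need SLC3A2 (4F2hc, CD98), a glycoprotein heavy chain, to reach the surface. SLC38A1 and SLC38A2 (SNAT1 and SNAT2) bring in small neutral amino acids with sodium. SLC1A5 (ASCT2) and SLC1A4 (ASCT1) exchange serine, alanine and related amino acids, and SLC1A5 also exchanges glutamine. SLC7A1 (CAT-1) carries arginine and lysine, and SLC6A14 (ATB0,+) concentrates neutral and cationic amino acids with sodium and chloride. SLC7A4 belongs by sequence to the cationic carriers, but transport by it alone has not been established. In the mammary gland these carriers supply the secretory epithelium with the building blocks of milk protein, and leucine entering through them is one of the inputs of the mTORC1 kinase.

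Luminal markers were high in every library (summed FPKM of 8 genes 7282 to 11565) and basal markers much lower (13.7 to 139 over 8 genes). The basal keratin *Krt14* alone was at 48.2, 104, 3.65, 27.7 and 45.5 FPKM in replicates 1 to 5. Replicate 3 stood apart: the summed FPKM of 8 mature luminal markers was 699 there and 22.3 to 52.3 elsewhere, that of 10 proliferation genes was 6.05 against 71 to 149, and that of 8 milk protein genes was 28544 against 68712 to 91293. Of 6 luminal progenitor markers, 4 were at their highest in replicate 3 and 1 at its lowest. Among the 4, *Itgb3* reached the mean of 1 FPKM required for testing only through replicate 3. Of the 8 luminal markers, 6 were at their highest there and 2 at their lowest. Over all genes tested these shares were 18.5% and 51.9%. The summed FPKM of 8 immune markers was 28.5, 1009, 269, 28.5 and 474 in replicates 1 to 5, of which *Cd74* alone gave 22.7, 696, 205, 25.9 and 465, while *Ptprc*, the pan-leukocyte marker CD45, was at 4.93 and 2.69 in replicates 2 and 3 and at 0.0603 to 0.183 in the others. By the study's methods, blood and endothelial cells had been depleted before sorting. Fibroblast markers summed to 112 and 92.1 in replicates 2 and 3 against 3.31 to 12.9 in the other libraries. The deposited table gives no counts, and an approximate depth read from the spacing of low values was 6280000, 13100000, 30200000, 6380000 and 21700000 fragments in replicates 1 to 5.

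Of the 10 transporter genes, 3 carried most of the signal. *Slc3a2*, *Slc7a5* and *Slc38a2* together made up between 85.7% and 87.7% of the summed FPKM of all 10 in every library, and the sum itself ran from 326 to 395 FPKM. On mean FPKM *Slc3a2* ranked 480th and *Slc7a5* 663rd among all genes of the table. All 10 genes reached the mean of 1 FPKM that was required for testing, 7 of them with at least 1 FPKM in every library, and *Slc7a8* passed through a single library.

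**Figure D1:**
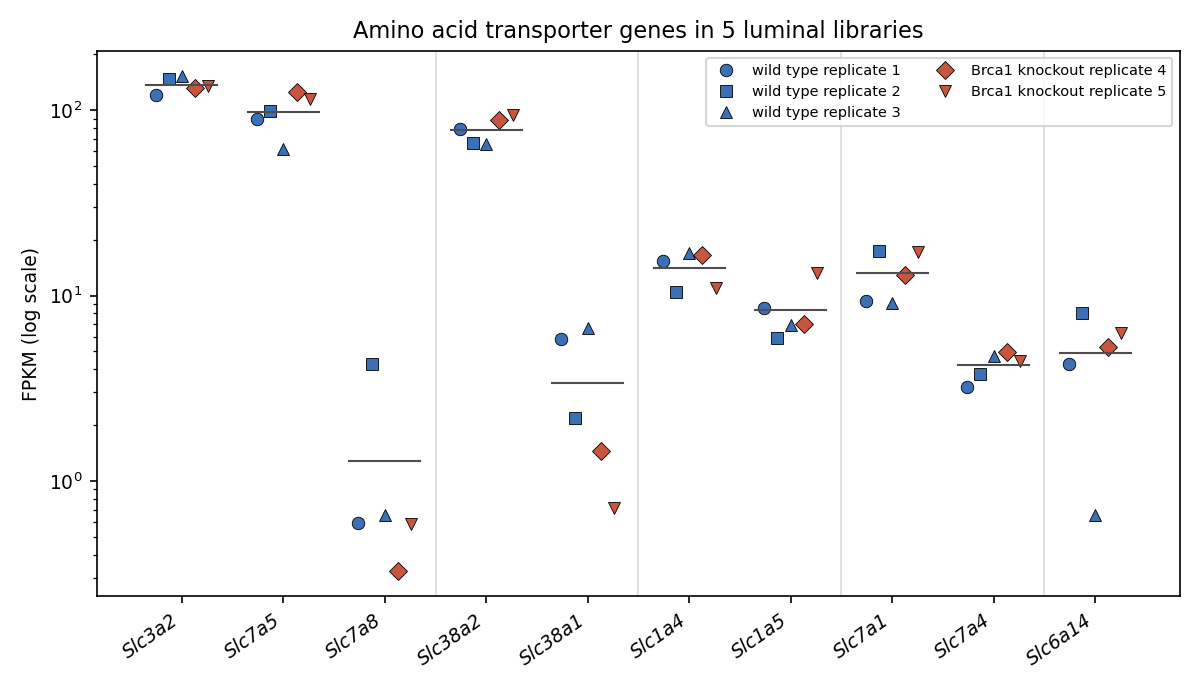
FPKM of the 10 transporter genes (vertical axis, log scale) in each of the 5 libraries, with blue symbols for wild type, red symbols for Brca1 knockout and a line at the mean of all 5. *Slc3a2*, *Slc7a5* and *Slc38a2* lie between 61.5 and 154 FPKM in every library, above all other genes shown, while *Slc6a14* drops in replicate 3 and *Slc7a8* rises in replicate 2.

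*Slc3a2* (ENSMUSG00000010095, mm10 chromosome 19, 8706882 to 8723369, reverse strand, all positions being those of mm10), the shared heavy chain, was the highest and the steadiest of the 10. It was at 121, 146 and 154 FPKM across the wild type libraries, against 131 and 134 FPKM in the knockouts. The knockout libraries lay inside the wild type range, and the highest library was 1.27 times the lowest. The SD of its log2 level over the 5 libraries was 0.13, where the median gene tested had 0.30. The log2 fold change between the labels (knockout minus wild type, on log2(FPKM + 1)) was -0.07 with a standard error of 0.19 (limma, Benjamini-Hochberg adjusted p = 0.969), and its 95% interval ran from -0.56 to 0.41.

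*Slc7a5* (ENSMUSG00000040010, chromosome 8, 121881150 to 121907694, reverse strand), the main light chain partner of *Slc3a2*, was at 89.4, 98.6 and 61.5 FPKM across the wild type libraries, against 125 and 115 FPKM in the knockouts. Both knockout libraries were above all wild type libraries, and replicate 3 was the lowest, at 0.575 times the mean of the others. Means were 83.2 ± 19.3 FPKM (SD, n = 3) in wild type and 120 ± 7.45 (SD, n = 2) in knockout libraries. The log2 fold change of 0.55 (standard error 0.26, 95% interval -0.10 to 1.19) did not pass the test (limma, adjusted p = 0.924), and without replicate 3 it was 0.35. Proliferation markers were also higher, 8 of the 10 in both knockout than in all wild type libraries, beside 17.5% of all genes tested. Their sums were 111 and 149 FPKM against 6.05 to 81. The part of cycling cells in the level of *Slc7a5*, and of *Slc38a2* below, was not tested, and in bulk RNA fewer cells of a type and less RNA per cell cannot be told apart.

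*Slc7a8* (ENSMUSG00000022180, chromosome 14, 54722209 to 54781946, reverse strand), the other leucine-exchanging light chain among the 10, was at 0.597, 4.27 and 0.657 FPKM across the wild type libraries, against 0.325 and 0.588 FPKM in the knockouts. It was thus low in all libraries but replicate 2, which rests on an estimated 229 fragments against 8.46 to 81.1 in the others. The knockout libraries were below all wild type libraries in the deposited values, but overlapped with them under quantile scaling. Its log2 fold change was -0.73 (standard error 0.60, limma adjusted p = 0.924) and -0.17 without replicate 2. In replicate 2, 6 of the 7 immune markers tested and 4 of the 6 fibroblast markers tested were also at their highest, beside 16% of all genes tested. Of these, the immune marker *Ptprc* and the fibroblast marker *Lum* reached the mean of 1 FPKM required for testing only through replicate 2. The immune sums were 28.5 to 1009 FPKM in wild type and 28.5 and 474 in knockout libraries, the last almost all *Cd74* (465), with *Ptprc* at 0.0603 to 4.93 and at 0.119 and 0.183 and *Cd3e* listed at 0 in replicates 1 and 4. The part of those cells in the level of *Slc7a8* was not tested.

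*Slc7a5* was 150, 23.1 and 93.5 times *Slc7a8* across the wild type libraries, against 385 and 195 times in the knockouts, on FPKM. The log2 ratio was 2.0 higher in knockout libraries (p = 0.2 by exact permutation of the labels, two-sided, which is the lowest p that 3 libraries against 2 can reach), and this difference fell to 1.21 without replicate 2. *Slc7a8* passed the filter on low values through replicate 2 alone and was under 1 FPKM elsewhere, so nothing is read from this difference.

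SLC3A2 pairs with 6 light chains in all, namely the products of *Slc7a5*, *Slc7a6*, *Slc7a7*, *Slc7a8*, *Slc7a10* and *Slc7a11*. *Slc7a5* gave 79.9% to 92.5% of their summed FPKM. *Slc7a7* (y+LAT1, which exchanges cationic for neutral amino acids) was at 4.67 to 9.15 FPKM and *Slc7a6* (y+LAT2) at 2.99 to 4.96. *Slc7a11*, the cystine-glutamate exchanger xCT, was at 0.825, 6.58 and 1.08 FPKM across the wild type libraries, against 1.46 and 1.90 FPKM in the knockouts, highest in replicate 2 as *Slc7a8* was. *Slc7a10* was at or near 0 in every library.

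The heavy chain message exceeded the summed light chains in wild type libraries and was about level with them in knockout libraries. *Slc3a2* was 1.23, 1.22 and 1.99 times the light chain sum across the wild type libraries, against 0.971 and 1.03 times in the knockouts. The groups did not overlap and the widest excess was in replicate 3. *Slc7a5* gave most of the light chain sum, so this ratio largely follows the level of *Slc7a5* and is not a separate result. On the log2 scale the difference in the ratio (knockout minus wild type) was -0.52 (p = 0.2 by exact two-sided permutation, the lowest possible), and -0.29 without replicate 3.

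**Figure D2:**
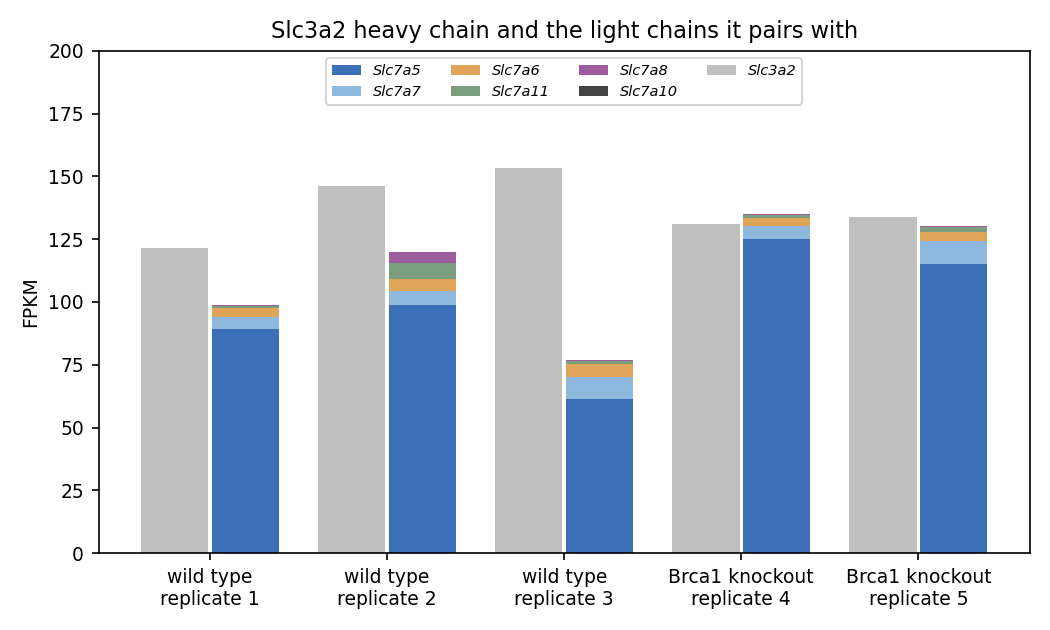
FPKM of *Slc3a2* (grey bars) beside the stacked FPKM of its 6 light chain genes (coloured bars) in each library. The light chain stack is mostly *Slc7a5*, reaches 98.9, 120 and 77 FPKM in the wild type libraries and 135 and 130 FPKM in the knockout libraries, and is furthest below *Slc3a2* in replicate 3.

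*Slc38a2* (ENSMUSG00000022462, chromosome 15, 96687392 to 96699730, reverse strand), the gene of the sodium-coupled carrier SNAT2, was at 78.7, 66.2 and 65.3 FPKM across the wild type libraries, against 88.2 and 93.6 FPKM in the knockouts. Both knockout libraries were above all wild type libraries, with means of 90.9 ± 3.83 (SD, n = 2) against 70.1 ± 7.47 FPKM (SD, n = 3). The log2 fold change of 0.38 (standard error 0.18, 95% interval -0.08 to 0.83) did not pass the test (limma, adjusted p = 0.924).

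Its neighbour *Slc38a1* (ENSMUSG00000023169, chromosome 15, 96571418 to 96642913, reverse strand), which encodes SNAT1, differed the other way. It was at 5.81, 2.19 and 6.71 FPKM across the wild type libraries, against 1.45 and 0.711 FPKM in the knockouts. Both knockout libraries were below all wild type libraries. The log2 fold change was -1.43 (standard error 0.45, 95% interval -2.57 to -0.29), the only one of the 10 with an unadjusted p under 0.05 in limma (3.24% of all genes tested). It did not pass the adjustment over all genes (limma, adjusted p = 0.924). Leaving out 1 library at a time gave -1.17 to -1.82. The knockout values rest on an estimated 67.3 and 112 fragments. Mature luminal markers were also lower in the knockout libraries. Of the 8, 5 lay below every wild type library, beside 5.77% of all genes tested. Among these 5, *Pgr* and *Prom1* were under 1 FPKM in every library but replicate 3. They reached the mean of 1 FPKM required for testing only through it, so nothing is read from their place in this count. The sums of all 8 markers were 22.3 and 33.1 FPKM against 50 to 699, and *Prom1* was listed at 0 in replicate 4. The part of those cells in the level of *Slc38a1* was not tested. *Slc38a2* was 13.5, 30.3 and 9.74 times *Slc38a1* across the wild type libraries, against 60.8 and 132 times in the knockouts. The log2 ratio was 2.50 higher in knockout libraries (p = 0.2 by exact two-sided permutation, the lowest possible). With 1 library left out at a time it was 1.94 to 3.05 higher. The ratio was taken on FPKM without the added 1, so low values weigh more in it than in the fold changes above. It largely follows the low level of *Slc38a1* in the knockout libraries and is not a separate result.

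The serine and alanine exchangers showed no such split. *Slc1a4* (ENSMUSG00000020142, chromosome 11, 20302180 to 20332713, reverse strand) was at 15.3, 10.4 and 17.0 FPKM across the wild type libraries, against 16.5 and 10.9 FPKM in the knockouts. *Slc1a5* (ENSMUSG00000001918, chromosome 7, 16781340 to 16798274, forward strand) was at 8.56, 5.92 and 6.92 FPKM across the wild type libraries, against 7.03 and 13.2 FPKM in the knockouts. The groups overlapped for both genes, with log2 fold changes of -0.05 (standard error 0.29, limma adjusted p = 0.989) and 0.41 (standard error 0.31, adjusted p = 0.924). *Slc1a4* was above *Slc1a5* in replicates 1 to 4, at 1.76 to 2.45 times, and below it in replicate 5, at 0.825 times. The log2 ratio of *Slc1a5* to *Slc1a4* was 0.50 higher in knockout libraries (exact permutation test, two-sided p = 0.6), and without replicate 5 the difference was -0.25, so its sign rested on that library.

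Among the cationic carrier family, *Slc7a1* (ENSMUSG00000041313, chromosome 5, 148327410 to 148399904, reverse strand) was at 9.35, 17.5 and 9.12 FPKM across the wild type libraries, against 12.8 and 17.1 FPKM in the knockouts. Replicates 2 and 5 were the high ones, 1 under each label, and the groups overlapped (log2 fold change 0.34, standard error 0.33, limma adjusted p = 0.924). The fold change was 0.15 to 0.63 with 1 library left out at a time, lowest without replicate 5 and highest without replicate 2. *Slc7a4* (ENSMUSG00000022756, chromosome 16, 17572018 to 17583214, reverse strand) was at 3.22, 3.79 and 4.74 FPKM across the wild type libraries, against 4.95 and 4.41 FPKM in the knockouts, again with overlap (log2 fold change 0.22, standard error 0.22, adjusted p = 0.924). It shares 554 exonic bases with *P2rx6* on the opposite strand. Reads in that stretch could be split between the genes, and *P2rx6* was listed at 0.0697 to 0.238 FPKM.

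*Slc6a14* (ENSMUSG00000031089, chromosome X, 21714896 to 21742355, forward strand) had the widest range of the 10 on the log2(FPKM + 1) scale (2.45), while the ratio of highest to lowest FPKM was 12.3 for it and 13.1 for *Slc7a8*. It was at 4.27, 8.04 and 0.656 FPKM across the wild type libraries, against 5.29 and 6.32 FPKM in the knockouts. Replicate 3 was at 0.11 times the mean of the other libraries, and without it the highest library was 1.88 times the lowest. Its log2 fold change was 0.66 (standard error 0.72, limma adjusted p = 0.925) with all libraries and -0.03 without replicate 3. In that library all 10 proliferation markers were at their lowest, beside 51.9% of all genes tested. All 8 mature luminal markers were at their highest there, beside 18.5%. *Pgr* and *Prom1* among them reached the mean of 1 FPKM required for testing only through that library. The part of either set in the level of *Slc6a14* was not tested.

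In order of mean FPKM the 10 genes ran *Slc3a2*, *Slc7a5*, *Slc38a2*, *Slc1a4*, *Slc7a1*, *Slc1a5*, *Slc6a14*, *Slc7a4*, *Slc38a1* and *Slc7a8*. A gap in this order lay between *Slc38a2* and *Slc1a4*, which differed by 2.42 on the log2 scale (SD 0.40 over 5 libraries) and whose ranges did not overlap. The order of these neighbours held in 5 of 5 libraries (exact sign-flip test within libraries, two-sided p = 0.062, the smallest that 5 pairs allow, adjusted p = 0.188 over 9 neighbour pairs). *Slc3a2* over *Slc7a5* and *Slc7a1* over *Slc1a5* also held in 5 of 5 libraries (differences 0.52 and 0.60), with overlapping ranges. For the remaining 6 pairs the order changed in at least 1 library. *Slc7a5* and *Slc38a2* differed by 0.29 (SD 0.26), and *Slc6a14* and *Slc7a4*, in this order on mean FPKM, by -0.0077 (SD 1.04) on the log2 scale. None of the 9 pairs passed the adjusted exact test, which cannot go below 0.05 with 5 libraries.

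Between the labels, 0 of the 10 genes passed an adjusted p of 0.05 in limma, and the same was true of 0 (0%) of the 11481 genes tested. At an unadjusted p under 0.05 there was 1 of the 10 (*Slc38a1*), beside 3.24% of all genes tested. Both knockout libraries lay above all wild type libraries in 2 of the 10 (*Slc7a5* and *Slc38a2*), beside 17.5% of all genes, and below them in 2 of the 10 (*Slc38a1* and *Slc7a8*), beside 5.77%. *Slc7a8* passed the filter on low values only through wild type replicate 2 and overlapped under quantile scaling, so nothing is read from the lower count. The share that lay higher is close to the background. The log2 fold change was above 0 in 6 genes and below 0 in 4, with a median of 0.28 beside 0.11 over all genes tested. That overall median was -0.0088 after median-of-ratios scaling, and fold changes here are to be read against it: under that scaling *Slc7a5* was at 0.42, *Slc38a2* at 0.24 and *Slc38a1* at -1.52. Over the 10 genes the median log2 level was 0.28 higher in the knockout libraries and the mean log2 level 0.03 higher (exact permutation test, two-sided, p = 0.2 and 0.8). The difference in the median was 0.13 without replicate 5, 0.43 without replicate 4 and 0.16 after median-of-ratios scaling. The summed FPKM of the 10 genes was 336, 363 and 326 across the wild type libraries, against 393 and 395 in the knockouts (log2 difference 0.21, exact permutation test, two-sided p = 0.2). After median-of-ratios scaling it was 0.07 (p = 0.8 in the same exact test).

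**Figure D3:**
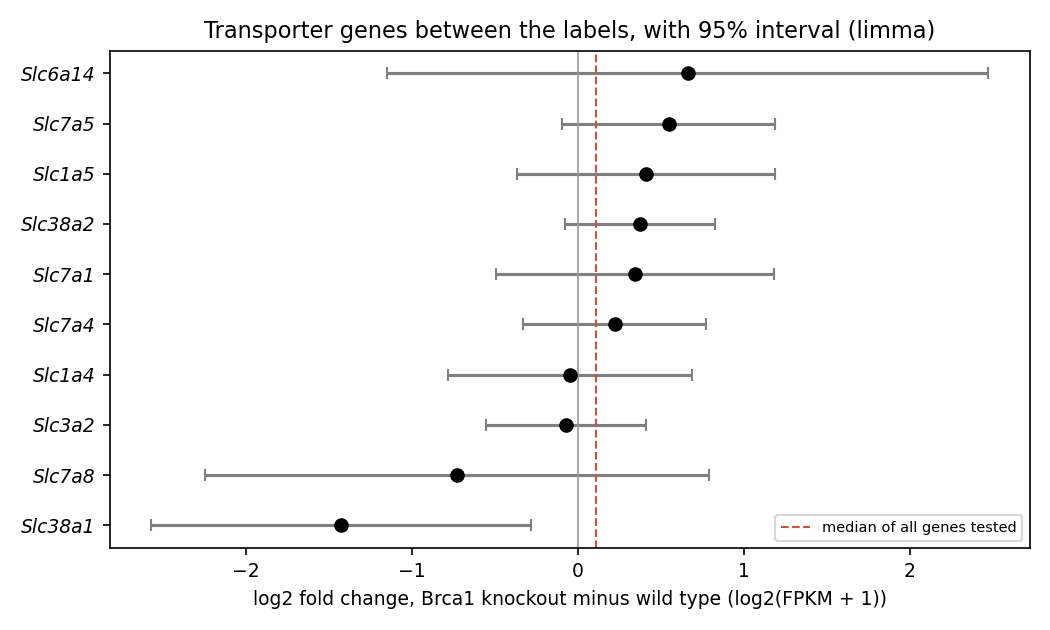
Log2 fold change (knockout minus wild type, horizontal axis, on log2(FPKM + 1)) of the 10 transporter genes with 95% intervals from limma, beside the median of all genes tested at 0.11 (dashed line). Only the interval of *Slc38a1*, from -2.57 to -0.29, leaves out 0, before any adjustment for multiple tests.

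Among the 10, the profiles of *Slc3a2* and *Slc7a4* lay closest, followed by those of *Slc7a5* and *Slc38a2*. Closeness was measured as the root mean square difference of the log2 levels over the 5 libraries once each gene was centred on its own mean. Steady genes lie close by this measure whether or not they rise and fall together. The log2 SDs of *Slc3a2* and *Slc7a4* were the lowest of the 10, at 0.13 and 0.20. It was 0.17 for *Slc3a2* and *Slc7a4*, 0.23 for *Slc7a5* and *Slc38a2*, and up to 1.58 for *Slc38a1* and *Slc6a14*. Of all genes tested, those nearest to *Slc7a5* were *Oxnad1* (0.0244), *Pnpla8* (0.0371) and *Ube2cbp* (0.0379). For *Slc6a14* they were *Car2* (0.13), carbonic anhydrase 2, *Cenpm* (0.13), a centromere protein, and *Mcm3* (0.17), a subunit of the replicative helicase. *Car2* was at 126, 165 and 33.1 FPKM across the wild type libraries, against 138 and 153 FPKM in the knockouts, low in replicate 3 as *Slc6a14* was. Replicate 3 was the lowest library for 51.9% of all genes tested. The nearest profiles were picked from 11481 genes over only 5 libraries, so small distances follow from the search. No shared function is read from them.

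Beyond these 10 genes, a list of 42 other amino acid transporters was examined, of which 16 reached a mean of 1 FPKM, 25 stayed under 1 FPKM in every library, 4 of them listed at 0 throughout. None of the 16 passed the test between the labels (0 at an unadjusted p under 0.05 in limma), 8 had a log2 fold change above 0 and 8 below 0, and the median was -0.02. *Slc38a10* had the highest mean of them, at 27.8 to 34.6 FPKM in all libraries. *Slc6a6*, the taurine transporter, was at 2.29, 5.65 and 6.18 FPKM across the wild type libraries, against 1.62 and 2.63 FPKM in the knockouts (log2 fold change -0.81, standard error 0.41, adjusted p = 0.924).

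Of the 16, replicate 3 was the highest library for 6 and the lowest for 5, beside 18.5% and 51.9% of all genes tested. Among the 6, *Slc7a2* reached the mean of 1 FPKM required for testing only through replicate 3. *Slc7a2* (CAT-2), like *Slc7a1* a carrier of arginine and lysine, was at 0.955, 1.42 and 78.5 FPKM across the wild type libraries, against 0.362 and 0.545 FPKM in the knockouts. *Slc7a1* therefore exceeded *Slc7a2* by 9.79 to 35.5 times in the other libraries and was at 0.116 times *Slc7a2* in replicate 3. *Slc1a1* (EAAC1), a glutamate and aspartate transporter, was at 28.1 FPKM in replicate 3 against 5.39 to 7.78 elsewhere. *Slc38a3* and *Slc43a2* were lower in replicate 3, at 0.452 against 2.01 to 3.21 and at 4.75 against 11.9 to 15.2 FPKM. The summed FPKM of the 42 other transporters was 181 in replicate 3 and 83.5 to 99.1 in the other libraries. That of the 10 genes was lowest there, at 326 FPKM. The part of the mature luminal markers, also highest in replicate 3, in these levels was not tested.

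**Figure D4:**
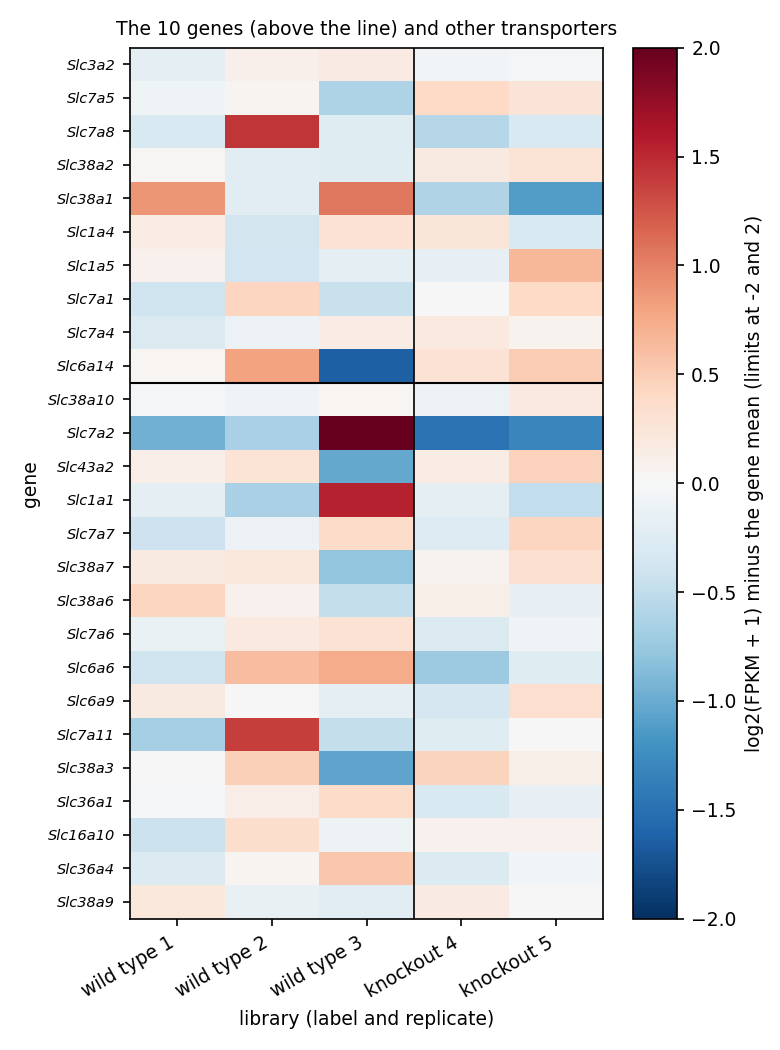
Log2(FPKM + 1) minus the mean of the gene (colour, with limits at -2 and 2) for the 10 genes (above the horizontal line) and the 16 other transporters tested (below it), with 1 column per library and a vertical line between the labels. Replicate 3 stands out by high *Slc7a2* and *Slc1a1* and low *Slc6a14*, and replicate 2 by high *Slc7a8* and *Slc7a11*.

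Genes that use or sense amino acids were described in the same way. Of 24 genes of the amino acid response, in which the kinase GCN2 and the transcription factor ATF4 raise transporters and synthesis enzymes when amino acids run short, 24 were tested and 0 passed between the labels (0 at an unadjusted p under 0.05 in limma). Their fold changes were above 0 in 17 and below 0 in 7, with a median of 0.11. *Atf3* and *Cebpb*, a pair of transcription factor genes, were the highest, at 230 to 549 and 284 to 410 FPKM. The lowest library was replicate 3 for 19 of the 24 genes, beside 51.9% of all genes tested and 4 of the 10 transporter genes. *Phgdh*, the first enzyme of serine synthesis, was at 12.8 FPKM in replicate 3 against 79.8 to 104 elsewhere. *Stc2* and *Nupr1* went the other way, at 137 and 238 FPKM in replicate 3 against 4.99 to 9.15 and 33.4 to 58.8.

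Of 24 genes of mTORC1 and its amino acid sensors, 23 were tested and 0 passed (1 at an unadjusted p under 0.05), with a median log2 fold change of 0.06. *Rps6*, the ribosomal protein S6, was at 755 to 1177 FPKM and *Lamtor2*, of the lysosomal anchor of mTORC1, at 49.5 to 80.4. In this list 6 of the 23 genes tested lay higher in both knockout than in all wild type libraries, beside 17.5% of all genes, and 2 lay lower, beside 5.77%. *Sesn3*, one of the sestrins, was at 8.88, 11.6 and 7.94 FPKM across the wild type libraries, against 15.0 and 18.6 FPKM in the knockouts (log2 fold change 0.77, standard error 0.23, limma adjusted p = 0.924). *Rragd*, a Rag GTPase, was at 0.745, 0.656 and 1.22 FPKM across the wild type libraries, against 1.80 and 2.19 FPKM in the knockouts (0.69, standard error 0.27, adjusted p = 0.924). It reached the mean of 1 FPKM required for testing only through the knockout libraries. Nothing is therefore read from its fold change or from its place among the 6 genes that lay higher.

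Of 21 enzymes of amino acid metabolism, 18 were tested and 0 passed (0 at an unadjusted p under 0.05 in limma), with a median log2 fold change of 0.03. *Got1*, an aspartate aminotransferase, was at 122 to 472 FPKM. *Arg1*, the arginase that splits the arginine brought in by cationic carriers, had the same high library as *Slc7a2*. It was at 1.64, 2.91 and 107 FPKM across the wild type libraries, against 1.75 and 2.43 FPKM in the knockouts. *Glul*, glutamine synthetase, was at 594 FPKM in replicate 3 and at 109 to 155 elsewhere. *Prodh*, proline dehydrogenase, was lower there, at 2.78 FPKM against 16.0 to 24.7. *Cbs*, cystathionine beta-synthase, was at 0.929, 0.478 and 4.29 FPKM across the wild type libraries, against 0.0658 and 0.136 FPKM in the knockouts (log2 fold change -1.17, standard error 0.60, limma adjusted p = 0.924). It reached the mean of 1 FPKM required for testing only through replicate 3, so nothing is read from this fold change.

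The milk protein genes, whose translation draws on these carriers, were lowest in replicate 3 for 7 of 8, beside 51.9% of all genes tested. *Csn2*, beta-casein, was at 10569 FPKM there and at 25327 to 31978 in the other libraries. *Csn1s2a*, another casein gene, was at 9119 against 20425 to 26001. *Glycam1* was at 186 FPKM in replicate 3 against 5506 to 12322. *Wap*, whey acidic protein, was at 1240, 2292 and 181 FPKM across the wild type libraries, against 282 and 794 FPKM in the knockouts, and *Csn1s2b* at 2.99 FPKM in replicate 3 against 4.84 to 11.2. *Lalba*, alpha-lactalbumin, was the exception, at 599 FPKM in replicate 3 against 130 to 185. *Slc3a2* was also at its highest in replicate 3. Between the labels 0 of the 8 passed (0 at an unadjusted p under 0.05 in limma).

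Promoter sequence was examined for a pair of motifs, because several of these carriers are textbook targets of ATF4 and of factors that bind E-boxes. RefSeq windows of 250 bases before to 50 bases after the start site (GRCm38.p6) were at hand for 6 of the 10 genes (*Slc3a2*, *Slc1a4*, *Slc7a1*, *Slc7a8*, *Slc38a2* and *Slc6a14*), 7 windows in all. TGATGNAA, the core of the ATF4 element, and the E-box CACGTG were searched on both strands. The first was found in 1 window, that of *Slc1a4*, and in 3.97% of all windows of this length. The second was found in 0 of the 7 windows and in 7.15% of all. A match outside these windows would not have been seen, so a gene without a match here may still hold the motif. The *Slc3a2* window (8713848 to 8714147) lies inside the gene span given above, away from the outermost start. The *Slc1a4* match lies on the other strand from the gene, begins 4 bases before the annotated start and runs across it. The stretch that ends with it (chr11:20332710-20332777, minus strand, RefSeq, GRCm38.p6) is shown because it holds the only match, in capitals:
Slc1a4: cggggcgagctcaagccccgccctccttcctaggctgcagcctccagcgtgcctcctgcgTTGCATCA
The level of *Slc1a4* overlapped between the labels, as given above.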

How the data were processed

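RNA of 5 libraries of sorted luminal cells was sequenced in paired-end mode by the authors, who made the deposited FPKM values with TopHat2 and Cufflinks on mm10. The submitters' processing notes give Trimmomatic 0.35, TopHat2 2.0.13 and Cufflinks 2.2.1, whereas the paper's methods name another TopHat release. The gene annotation is not given in the sources used here. The sequencer (HiSeq instruments of more than one model and read length) is not given per library. Cufflinks assigns fragments by a model, so FPKM of overlapping genes are estimates.

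The table held 24346 rows. In 27 rows the name had become a date, and these were left out. No libraries were identical. FPKM were analysed as log2(FPKM + 1), which understates changes of low genes. Ratios between genes and summed FPKM were taken as log2 without the added 1. Genes whose mean reached 1 FPKM (11481) were fitted with limma 3.58.1 (lmFit, eBayes with trend, R 4.3.3), with p-values adjusted by the Benjamini-Hochberg method over all of them and a threshold of 0.05. The fit was tested on simulated data. Single values were compared by exact permutation of the labels and neighbouring genes by exact sign flips. Depth was estimated from 873 genes with a single transcript over 3000 bases. Only 50.4% to 58.7% of low values lay within 0.15 of a whole multiple, so no counts were recovered and fragment numbers are approximate. Coordinates are those of GENCODE M21 (GRCm38, which is mm10). Windows of promoters came from RefSeq.

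The genes and lists were chosen with earlier results of these data known. Besides the 10 genes, the text names from each list the 2 highest in mean, the 2 with the largest log2 fold change and the 2 in which replicate 3 lay furthest from the rest, the remaining light chains, and the 3 profiles nearest to *Slc7a5* and *Slc6a14*. *Brca1*, *P2rx6*, *Ptprc*, *Cd74*, *Cd3e*, *Lum*, *Krt14*, *Itgb3*, *Pgr*, *Prom1*, *Lalba*, *Slc38a3* and *Slc43a2* are named beside a result, after their values were seen. Alternatives were another pseudocount (0.1), other filters, scalings and weights, and each replicate left out. Other software was pandas 2.3.3, numpy 2.4.6 and matplotlib 3.10.9 under Python 3.11.15.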

Additional observations from a re-analysis of the deposited data

Results flagged for a closer look

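A library was picked out where its gap to the nearest other library was large for the range of all 5 (Dixon's criterion at the 95% level, which picks out about 1 in 20 groups by chance), with the 5 libraries taken as 1 group. Of 41 items examined, 14 were picked out, 13 of them for replicate 3, and over all genes tested it was 13%, of which 81.3% were for replicate 3. The count of 13 is partly set by the choice of genes, since some were named because replicate 3 lay furthest from the rest. Among the 10 transporter genes there was 1, *Slc7a8*, at 4.27 FPKM in replicate 2. *Slc6a14* was not, although it was at 0.656 FPKM in replicate 3.

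Replicate 3 was the highest library for *Slc7a2* (78.5 FPKM), *Slc1a1* (28.1), *Stc2* (137), *Nupr1* (238), *Glul* (594) and *Arg1* (107). It was the lowest for *Phgdh* (12.8 FPKM), *Akt1s1* (18.8), *Mlst8* (1.70), *Prodh* (2.78), *Csn2* (10569), *Csn1s2a* (9119) and *Glycam1* (186). *Akt1s1* and *Mlst8* encode a subunit each of the mTORC1 complex.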

How the results depend on the processing

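None of the 10 transporter genes passed an adjusted p of 0.05 in limma under any alternative that gave it a value, with adjusted p from 0.113 to 1. The other lists also had 0 genes past the test throughout. Over all genes tested, 0 passed, 1 passed with array weights (which gave replicate 2 a weight of 5.59 and replicate 3 a weight of 0.148), and 0 to 18 passed with 1 replicate left out (2 without replicate 1, 18 without replicate 4 and 4 without replicate 5). Leaving out replicate 4 or 5 leaves 1 knockout library, which is then assumed to vary like the others. Of 116 alternative fold changes of the 10 genes, 8 changed sign. With array weights *Slc1a4* was at 0.29, *Slc7a1* at -0.14 and *Slc6a14* at -0.29. With 1 replicate left out at a time *Slc1a4* ran from -0.33 to 0.23 (0.013 without replicate 1, 0.086 without replicate 3 and 0.23 without replicate 5), *Slc1a5* from -0.0051 (without replicate 5) to 0.82, and *Slc6a14* from -0.025 (without replicate 3) to 1.2. Of 44 alternatives of the single values, 1 changed sign: the log2 ratio of *Slc1a5* to *Slc1a4* differed by -0.25 without replicate 5, in a range of -0.25 to 1.26. The number of neighbours that kept their order in every library was 3 with all libraries and 5 without replicate 2 and without replicate 3, where fewer libraries have to agree. A minimum mean of 5 FPKM removed *Slc7a8*, *Slc38a1*, *Slc6a14* and *Slc7a4*, which then had no value. No paired analysis was possible because the labels share no replicate numbers between the groups. Depth limits *Slc7a8* most, which rests on an estimated 8.46 fragments in replicate 4.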
